A study of Mus musculus with 25 samples.

Results

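The 9 keratin genes described here were chosen by name, 5 of the epidermis (Krt1, Krt2, Krt10, Krt77 and Krt80) and 4 of simple epithelia (Krt7, Krt8, Krt18 and Krt19). Measured values were examined for 8 of the 9 in pups, among 21106 listed genes, and for 7 of the 9 in adults, among 19942. Krt2 was not analysed here, and Krt77 was analysed in pups alone. RNA of the whole esophagus was sequenced in 25 libraries of 7 genotype groups. Pups aged 7 to 10 days were wild type, NRF2L30F/L30F::K5Cre or KEAP1flox/flox::K5Cre, with 3 libraries each. Adults aged 6 to 9 weeks were wild type, NRF2L30F/+::K5CreERT2, NRF2L30F/L30F::K5CreERT2 or KEAP1flox/flox::K5CreERT2, with 4 libraries each, and were taken 1 week after tamoxifen at 100 µg per g of body weight. L30F is a cancer-derived change of NRF2 at codon 30, knocked in and switched on by Cre. The K5 promoter drives Cre in the basal cells of squamous epithelia, and the muscle and connective tissue in each library are not its target. The labels do not say whether the wild-type mice carried Cre, or whether libraries came from separate animals, so p-values measure the spread between libraries. Below, the mutant groups are named L30F homozygotes, L30F heterozygotes and KEAP1-deficient mice.

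Keratins are the intermediate filament proteins of epithelial cells, and each filament is built from pairs of a type I and a type II chain. Krt1 (type II) pairs with Krt10 (type I) in the suprabasal layers of the epidermis, and Krt2 and Krt77 are further type II keratins of skin. Krt80 is a type II keratin of differentiating stratified epithelia. Krt8 (type II) and Krt18 (type I) are the primary pair of simple, single-layered epithelia, where Krt7 (type II) and Krt19 (type I) are often added. The esophageal lining is a stratified squamous epithelium whose own main keratins are Krt5 and Krt14 in the basal layer and Krt4 and Krt13 above it. NRF2 is a transcription factor that switches on antioxidant defence genes, and KEAP1 binds NRF2 and delivers it for degradation.

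The stretches of 250 bases upstream of the start sites are shown for the simple keratins Krt8, Krt18 and Krt7 and for Krt10, since the results turn on how these genes moved in company or apart. In RefSeq's gene table, Krt8 and Krt18 are neighbouring coding genes on chromosome 15, read in opposite directions. The sequences are from RefSeq on GRCm38.p6 and run 5′ to 3′ along each gene's own strand. Capitals mark a TATA box core (TATAA) or a GC box (GGGCGG), searched on both strands, so a GC box can also read CCGCCC. The Krt8 window is chr15:102004343-102004592 on the minus strand, and the Krt18 window is chr15:102027966-102028215 on the plus strand. The Krt7 window is chr15:101412153-101412402 on the plus strand, and the Krt10 window is chr11:99389365-99389614 on the minus strand.
Krt8: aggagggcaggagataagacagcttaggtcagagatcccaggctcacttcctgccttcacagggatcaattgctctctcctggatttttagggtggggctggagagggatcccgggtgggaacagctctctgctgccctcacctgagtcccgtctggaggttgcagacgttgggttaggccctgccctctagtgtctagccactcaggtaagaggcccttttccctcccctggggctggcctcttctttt
Krt18: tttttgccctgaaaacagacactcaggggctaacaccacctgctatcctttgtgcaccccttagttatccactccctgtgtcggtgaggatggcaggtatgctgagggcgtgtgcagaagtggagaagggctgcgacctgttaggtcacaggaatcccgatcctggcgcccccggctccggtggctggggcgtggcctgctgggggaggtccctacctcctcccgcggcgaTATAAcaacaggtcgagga
Krt7: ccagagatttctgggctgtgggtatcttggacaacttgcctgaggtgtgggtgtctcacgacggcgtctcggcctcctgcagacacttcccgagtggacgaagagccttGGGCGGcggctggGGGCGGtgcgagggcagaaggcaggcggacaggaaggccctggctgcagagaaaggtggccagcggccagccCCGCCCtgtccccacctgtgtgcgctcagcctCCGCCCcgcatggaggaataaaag
Krt10: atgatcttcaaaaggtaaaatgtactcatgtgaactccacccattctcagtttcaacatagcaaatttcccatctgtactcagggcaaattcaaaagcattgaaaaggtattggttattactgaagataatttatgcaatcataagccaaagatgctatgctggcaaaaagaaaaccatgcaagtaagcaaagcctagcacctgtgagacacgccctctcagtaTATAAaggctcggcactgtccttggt
Windows were found for 6 of the 9 genes; those of Krt2 and Krt77 were searched as well and are not printed. A TATA box core was found 1 time in Krt10, starting at base -26 from the start site, 1 time in Krt2, at -27, and 1 time in Krt18, at -19, and none was found in Krt7, Krt8 or Krt77. Only the exact letters TATAA were counted, and the Krt77 window reads tatatata near its end, which they do not match. Krt7 held 4 GC boxes, and the other windows searched held 0. Of 32851 RefSeq windows of 250 bases, 22.8% held the TATA box core and 32.7% the GC box. The core of the antioxidant response element, the site that NRF2 binds (TGACNNNGC, both strands), and the related AP-1 site (TGANTCA) had 0 matches in the 6 windows, against 10.2% and 6.75% of all windows. These are matches of letters in short windows and say nothing about binding in these tissues.

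Values are normalised counts, in which each library's reads are scaled by its size factor. Depth ran from 18791982 to 19650112 reads in pups and from 10867770 to 32281360 in adults, with L30F homozygotes the shallowest (10867770 to 11643395). The squamous marker list, Krt5 and Krt14 among its 8 genes, was found in every library with none of its genes at 0. Its sum was not even across groups: it ran from 130622 to 151721 in wild-type pups, 219310 to 258490 in homozygous pups and 291673 to 327839 in KEAP1-deficient pups, and its median was 1063538 in adult wild type and 313243 in KEAP1-deficient adults. In 2 pup libraries markers of other organs stood apart. The thyroid list summed to 32571 in L30F homozygote library 1 and to 32.0 to 86.3 in the other pup libraries. The glandular stomach list summed to 6473 in KEAP1-deficient library 2 and to 10.8 to 331 in the others. Pup calls that rest on these 2 libraries are given with and without them. Krt8 has a processed pseudogene (Krt8-ps), to which some of its reads could have been assigned.

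**Figure D1:**
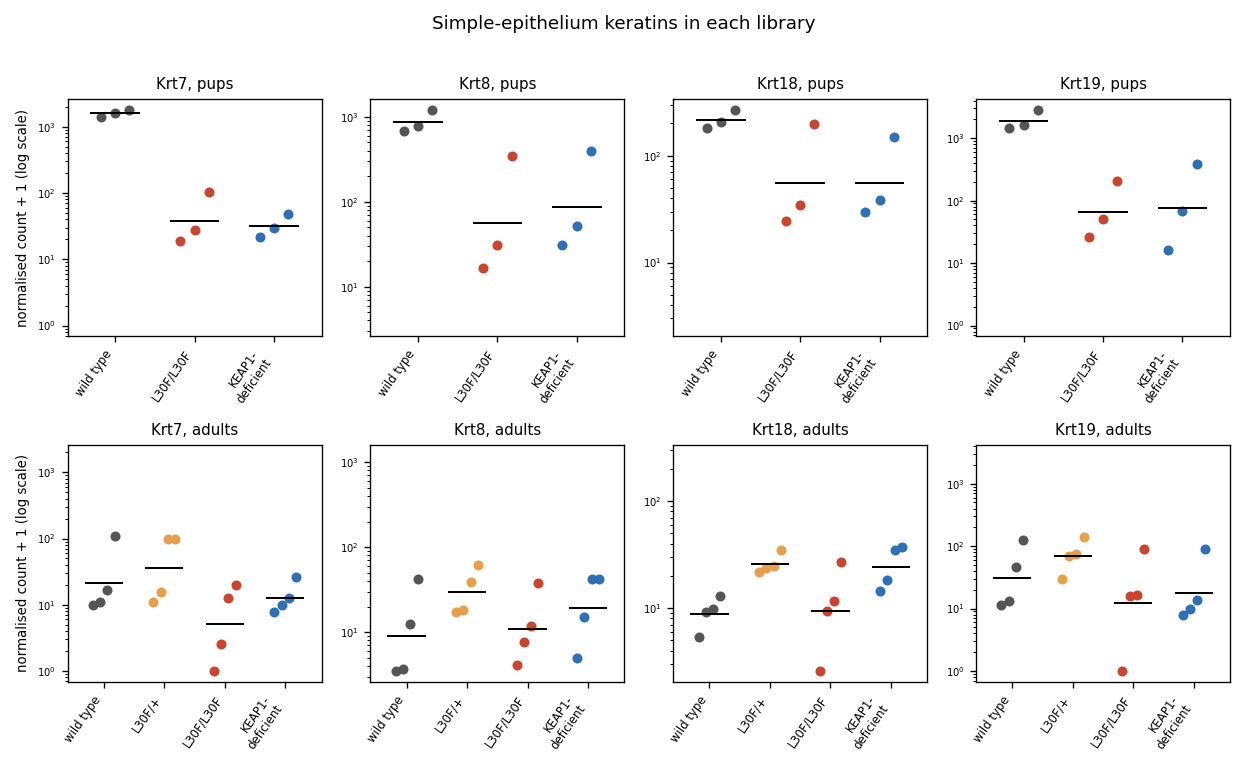
Normalised count + 1 (log axis) of Krt7, Krt8, Krt18 and Krt19 in every library of the pups (top) and adults (bottom), by genotype, with 1 point per library and a bar at the geometric mean. For Krt7, Krt8 and Krt19 wild-type pups stand apart at the top: their lowest Krt7 value is 1384, and the highest in the other pups is 103.6. For Krt18 the highest homozygous pup (196.3) lies within the wild-type range (178.8 to 267.1).

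In pups, the 4 simple keratins were abundant in wild type and low in most libraries of both mutants. Krt7 was 1803, 1613 and 1384 in the wild-type libraries, 103.6, 17.7 and 26.6 in L30F homozygotes and 48.0, 28.2 and 20.5 in KEAP1-deficient pups. No mutant library came near a wild-type library. Krt7 fell by 5.39 in log2 units in homozygotes (SE 0.60, adjusted p = 0.00021) and fell by 5.67 in KEAP1-deficient pups (SE 0.60, adjusted p = 1e-04). Without the thyroid and stomach libraries Krt7 fell by 6.13 (adjusted p = 1.8e-05) and fell by 5.61 (adjusted p = 2e-05). Krt19, a type I chain of simple and glandular epithelia without a tail domain, was 2842, 1639 and 1432 in wild type. It was 204.2, 25.6 and 49.2 in homozygotes and 66.1, 388.2 and 15.1 in KEAP1-deficient pups. The ranges did not overlap with wild type. Krt19 fell by 4.86 (SE 1.24, adjusted p = 0.02) and fell by 4.65 (SE 1.24, adjusted p = 0.019). Its call ended in homozygotes without wild-type library 1 (adjusted p = 0.059), wild-type library 2 (0.053), homozygote library 2 (0.071) or homozygote library 3 (0.06). In KEAP1-deficient pups it ended without wild-type library 1 (0.055) or KEAP1-deficient library 1 (0.057). With the thyroid and stomach libraries left out, Krt19 fell by 5.69 (adjusted p = 0.0024) and fell by 5.84 (adjusted p = 0.0017).

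Krt8 and Krt18, the primary pair, were lower in most mutant libraries but did not pass the test with all libraries in. Krt8 was 1204, 776.5 and 673.4 in wild-type pups, 347.7, 15.8 and 29.7 in homozygotes and 50.1, 393.9 and 30.2 in KEAP1-deficient pups. Both mutant groups lay below wild type, and in each 1 library was far above the other two. The log2 differences were -3.93 (95% interval -7.16 to -0.70, adjusted p = 0.059) and -3.32 (-6.55 to -0.09, adjusted p = 0.082). Krt18 was 267.1, 178.8 and 206.2 in wild type, 196.3, 33.5 and 23.6 in homozygotes and 28.8, 147.8 and 37.8 in KEAP1-deficient pups. Here the high homozygote library lay within the wild-type range. The log2 differences were -1.97 (-4.00 to 0.07, adjusted p = 0.12) and -1.95 (-3.99 to 0.09, adjusted p = 0.10). The high libraries of Krt8 and Krt18 are the 2 that hold thyroid or stomach transcripts. Without homozygote library 1, the adjusted p in homozygotes was 0.012 for Krt8 and 0.0099 for Krt18. Without KEAP1-deficient library 2, it was 0.037 and 0.038 in KEAP1-deficient pups. With both of these libraries left out, Krt8 fell by 5.24 in homozygotes (adjusted p = 4.2e-05) and fell by 4.42 in KEAP1-deficient pups (adjusted p = 7.1e-05). In the same fit Krt18 fell by 2.89 (adjusted p = 6.1e-05) and fell by 2.66 (adjusted p = 7e-05). This choice was made after seeing the data. With all libraries in, limma-voom on the recovered reads called Krt8 in both mutants (adjusted p = 0.028 in each) and Krt18 in KEAP1-deficient pups (adjusted p = 0.049).

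Markers of other epithelia are given beside the simple keratins, since several of their sums were lower in most mutant pups. The sum of the simple epithelium list (24 genes, whose calls are given below) was not lower. It ran from 10624 to 14581 in wild type, 12174 to 14274 in homozygotes and 15443 to 18281 in KEAP1-deficient pups. The airway list (13 genes of ciliated and secretory airway cells, such as Foxj1, Dnah5, Muc5b and Ltf) summed to 2777 to 5571 in wild type. It summed to 7539, 52.2 and 106.5 in homozygotes and to 283.7, 570.0 and 37.8 in KEAP1-deficient pups. Of its 13 genes, 0 rose and 4 fell in homozygotes, and 0 rose and 7 fell in KEAP1-deficient pups, with medians of -2.33 and -3.56 on the log2 scale. Shares called over all genes were 39.2% and 49.5%, and the airway counts are near or below these shares; the mesothelium and neuroendocrine counts are to be read against the same shares. Without the thyroid and stomach libraries 9 of the airway genes fell in homozygotes and 8 in KEAP1-deficient pups, beside 38.5% and 44.3% of all genes. Homozygote library 1 exceeded every wild-type library in the airway sum, which is not split by gene here. Up to 6 of the airway genes were at 0 in a mutant library, against at most 1 in wild type. The mesothelium list (9 genes of the lining of body cavities) summed to 4212 to 4554 in wild type, 571.7 to 1617 in homozygotes and 539.5 to 873.6 in KEAP1-deficient pups. Of its 9 genes, 1 rose and 2 fell in homozygotes, and 1 rose and 5 fell in KEAP1-deficient pups; without the 2 libraries 1 rose in each and 2 and 3 fell. Upk1b, a uroplakin among those that fell, fell by 4.18 (adjusted p = 0.0092) and fell by 4.31 (adjusted p = 0.0061). It was picked after its values were seen and does not stand for the list. The list of Merkel and neuroendocrine cells, which use Krt8, Krt18 and Krt20, summed to 1169 to 1306 in wild type, 915.6 to 1046 in homozygotes and 732.8 to 788.3 in KEAP1-deficient pups. Of the 6 neuroendocrine genes tested, 1 rose and 2 fell in homozygotes, and 0 rose and 2 fell in KEAP1-deficient pups. Without the 2 libraries 0 of them rose and 2 and 3 fell. None of the airway and mesothelium genes named here was at 0 in wild-type pups. The part of these cells in the keratin values was not tested, and in bulk tissue fewer cells of a type and less RNA per cell cannot be told apart.

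**Figure D2:**
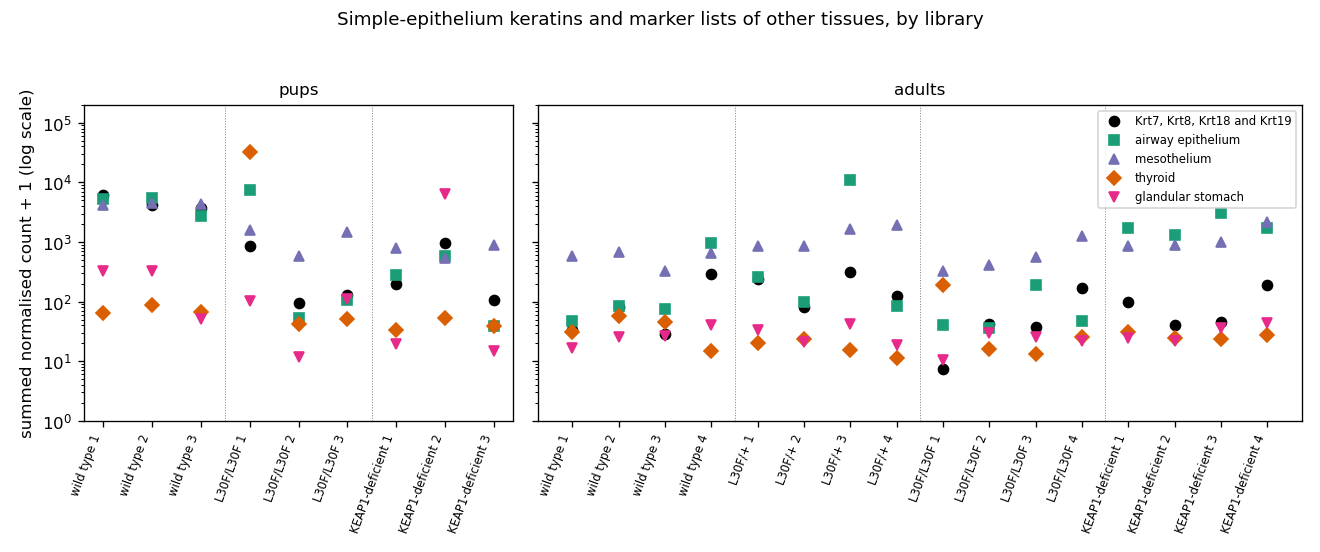
Summed normalised count + 1 (log axis) of the 4 simple keratins (black) and of 4 marker lists in every library, pups left and adults right. The simple keratins sum to 3696 to 6115 in wild-type pups and to at most 958.2 in the other pup libraries, and the 2 highest mutant sums are in the libraries with thyroid or stomach markers.

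The epidermal keratins in pups did not move as 1 group. Krt1 was 171.8, 253.5 and 532.2 in wild type, 753.1, 3319 and 1209 in homozygotes and 947.2, 2630 and 1764 in KEAP1-deficient pups. Every mutant library lay above every wild-type library. Krt1 rose by 2.34 in log2 units in homozygotes (SE 0.69, adjusted p = 0.034) and by 2.52 in KEAP1-deficient pups (SE 0.69, adjusted p = 0.021). Krt10, its partner chain, was 272.4, 449.2 and 620.3 in wild type, 426.4, 401.2 and 438.3 in homozygotes and 408.5, 620.7 and 529.2 in KEAP1-deficient pups. The ranges overlapped throughout, with log2 differences of -0.01 (95% interval -0.62 to 0.61) and 0.27 (-0.34 to 0.89). The log2 ratio of Krt1 to Krt10 was -0.57 ± 0.31 (SD, n = 3) in wild type, 1.78 ± 1.15 in homozygotes and 1.68 ± 0.44 in KEAP1-deficient pups. In counts the pair went from Krt10 above Krt1 in each wild-type library to Krt1 above Krt10 in each mutant library.

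The rise of Krt1 in pups rested on few libraries. In homozygotes the call ended without wild-type library 1 (adjusted p = 0.097), wild-type library 2 (0.094), homozygote library 2 (0.076) or homozygote library 3 (0.068), with the groups compared fitted alone (0.059) and with limma-voom (0.05). In KEAP1-deficient pups the Krt1 call ended without wild-type library 1 (0.063), wild-type library 2 (0.061), KEAP1-deficient library 2 (0.071) or KEAP1-deficient library 3 (0.053). With the thyroid and stomach libraries left out, Krt1 was higher by 2.81 in homozygotes (adjusted p = 0.036), and its difference in KEAP1-deficient pups was 2.18 (adjusted p = 0.065).

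Krt80 gave the tightest difference of the epidermal keratins. It was 1696, 2038 and 2019 in wild-type pups, 5777, 5436 and 4448 in homozygotes and 7029, 7854 and 6887 in KEAP1-deficient pups. The 3 groups did not overlap. Krt80 rose by 1.44 in log2 units in homozygotes (SE 0.11, adjusted p = 4.2e-06) and by 1.92 in KEAP1-deficient pups (SE 0.11, adjusted p = 3.3e-07). Without the thyroid and stomach libraries its rise was 1.36 and 1.86. Krt77 was 112.2, 330.0 and 402.2 in wild type, 192.3, 92.7 and 141.3 in homozygotes and 141.9, 120.8 and 104.8 in KEAP1-deficient pups. Wild-type library 1 lay within the mutant ranges, and the log2 differences were -0.85 (adjusted p = 0.18) and -1.01 (adjusted p = 0.10). Without wild-type library 1, Krt77 fell by 1.41 (adjusted p = 0.0048) and fell by 1.58 (adjusted p = 0.0019).

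Of the 8 keratins tested in pups, 4 were called in L30F homozygotes against wild type, Krt1 and Krt80 higher and Krt7 and Krt19 lower, beside 39.2% of all genes tested. The same 4 were called in KEAP1-deficient pups against wild type, beside 49.5% of all genes. Both counts are near these backgrounds. The comparisons share their wild-type libraries. Without the thyroid and stomach libraries 6 were called in homozygotes, beside 38.5% of all genes, and 5 in KEAP1-deficient pups, beside 44.3%. The 4 simple keratins were lower in each. Those libraries were left out after seeing the data. Between homozygotes and KEAP1-deficient pups 1 of 8 was called, beside 4.17% of all genes: Krt80 differed by -0.48 in log2 units, lower in homozygotes (SE 0.11, adjusted p = 0.044). That Krt80 call ended without any 1 of the 6 libraries compared (adjusted p from 0.058 to 0.13). Krt7, Krt8, Krt18 and Krt19 differed between the mutants by -0.60 to 0.27, with ranges that overlapped.

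Other genes of epidermal differentiation rose with Krt1 and Krt80 in pups. Of 26 genes of epidermal differentiation (cornified envelope, desmosomal, lipid-barrier and protease genes), 24 rose and 1 fell in homozygotes, with a median log2 difference of 3.82 against -0.03 over all genes. In KEAP1-deficient pups 24 rose and 1 fell, with a median of 4.54 against -0.05. The shares called over all genes were 39.2% and 49.5%, and the list counts were the same without the thyroid and stomach libraries. Other cell-type markers moved beside this list. Of the 8 squamous markers 6 rose and 1 fell in homozygotes, and 7 rose and 1 fell in KEAP1-deficient pups. Of 7 fibroblast genes 6 fell in each mutant, and their sum ran from 280366 to 298025 in wild type, 90091 to 132354 in homozygotes and 59022 to 113740 in KEAP1-deficient pups. Their part in the rise was not tested. Dmkn (dermokine, a secreted protein of upper epidermal layers) rose by 4.37 (adjusted p = 3.8e-09) and by 4.86 (adjusted p = 1.3e-09). Sbsn (suprabasin) rose by 2.87 (adjusted p = 5.2e-09) and by 3.60 (adjusted p = 1e-09), and Tgm3, a transglutaminase that crosslinks the envelope, by 2.03 (adjusted p = 2.3e-08) and by 2.49 (adjusted p = 3.8e-09). Of 24 genes of simple and glandular epithelia, 5 rose and 7 fell in each mutant, with medians of -1.08 and -1.06, a share called near that of all genes. Without the thyroid and stomach libraries 5 rose and 13 fell in homozygotes, and 4 rose and 10 fell in KEAP1-deficient pups, beside 38.5% and 44.3% of all genes. Cldn10, a claudin of secretory ducts and kidney tubules, fell by 3.20 (adjusted p = 2.6e-05) and fell by 4.21 (adjusted p = 2.3e-06). Elf3, an epithelial transcription factor, fell by 2.73 in homozygotes (adjusted p = 0.00054). Cd24a, a surface protein of many epithelial cells, rose by 1.11 (adjusted p = 4.7e-05) and by 1.40 (adjusted p = 5.9e-06).

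**Figure D3:**
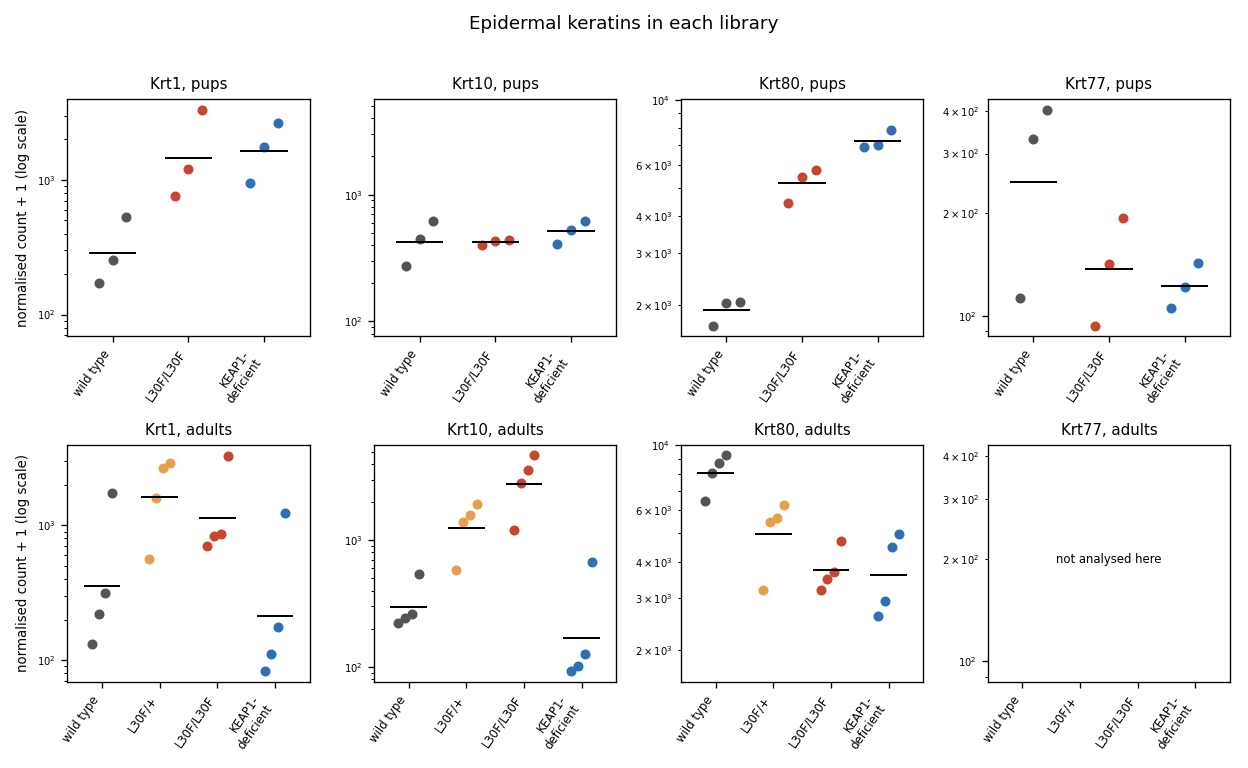
Normalised count + 1 (log axis) of Krt1, Krt10, Krt80 and Krt77 in every library of the pups (top) and adults (bottom), by genotype, with 1 point per library and a bar at the geometric mean. Krt10 is level over the pup groups and rises in adult L30F homozygotes (1208 to 4667 against 221.1 to 541.4 in wild type), while Krt80 is higher than wild type in mutant pups and lower in mutant adults.

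In adults Krt10 rose in L30F homozygotes, and no other difference of the epidermal pair from wild type passed the test. Krt10 was 240.5, 541.4, 258.2 and 221.1 in wild type and 577.5, 1913, 1570 and 1393 in L30F heterozygotes. It was 2835, 3598, 1208 and 4667 in L30F homozygotes and 676.1, 99.8, 91.6 and 125.9 in KEAP1-deficient adults. All libraries of both L30F groups lay above wild type, and 3 of the 4 KEAP1-deficient libraries lay below it. Krt10 rose by 3.22 on the log2 scale in homozygotes against wild type (SE 0.62, adjusted p = 0.0028), and the call held with each library left out. In heterozygotes the Krt10 difference was 2.08 (95% interval 0.74 to 3.42, adjusted p = 0.051), and it passed the test without heterozygote library 1 (adjusted p = 0.039), with an offset of 4 (0.049) or with the groups compared fitted alone (0.033). In KEAP1-deficient adults the Krt10 difference was -0.81 (-2.15 to 0.53, adjusted p = 0.32), and without KEAP1-deficient library 1 Krt10 fell by 1.48 (adjusted p = 0.023).

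Krt1 varied more between libraries of a genotype than Krt10. It was 131.4, 1728, 314.2 and 219.1 in adult wild type, 566.6, 2906, 2693 and 1602 in heterozygotes, 829.8, 865.5, 707.7 and 3278 in homozygotes and 1239, 110.2, 81.8 and 173.9 in KEAP1-deficient adults. Wild-type library 2 lay within the range of both L30F groups. The log2 differences from wild type were 2.20 in heterozygotes (95% interval 0.14 to 4.27, adjusted p = 0.17), 1.68 in homozygotes (-0.38 to 3.74, adjusted p = 0.23) and -0.75 in KEAP1-deficient adults (-2.81 to 1.32, adjusted p = 0.56). The log2 ratio of Krt1 to Krt10 was 0.27 ± 1.06 (SD, n = 4) in wild type, 0.39 ± 0.37 in heterozygotes, -1.28 ± 0.75 in homozygotes and 0.33 ± 0.44 in KEAP1-deficient adults. In homozygotes Krt10 exceeded Krt1 in each library, the reverse of homozygous pups.

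**Figure D4:**
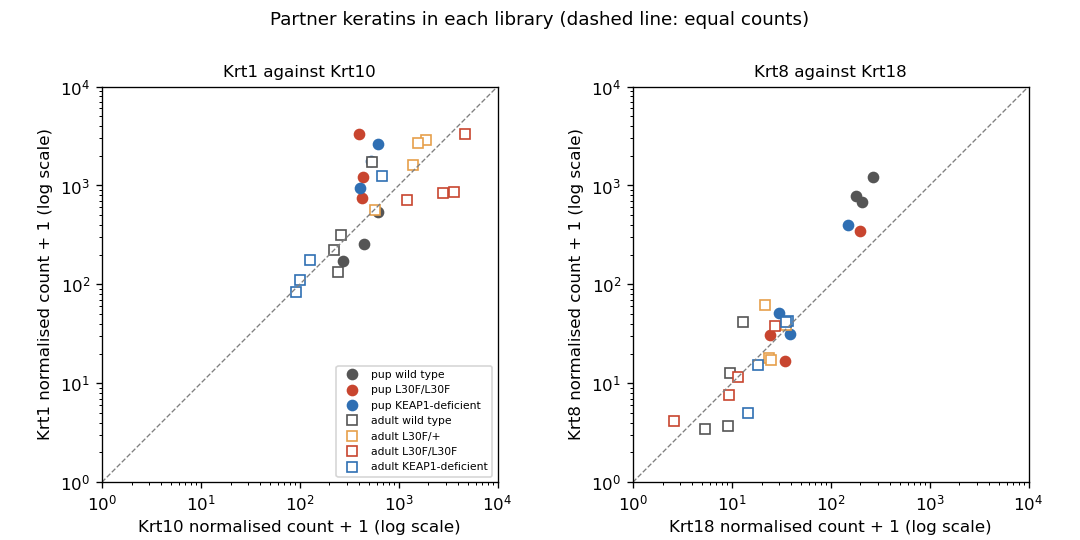
Normalised count + 1 of partner keratins in the 25 libraries, Krt1 against Krt10 (left) and Krt8 against Krt18 (right), both axes on a log scale, pups as filled circles and adults as open squares. Mutant pups lie above the line of equal counts for Krt1 and Krt10 and adult L30F homozygotes below it, and wild-type pups stand at the top right of Krt8 and Krt18.

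Krt80 moved the other way in adults than in pups. It was 9232, 8027, 8686 and 6430 in adult wild type, 5454, 3203, 6226 and 5644 in heterozygotes, 3685, 3504, 3216 and 4694 in homozygotes and 4965, 2618, 2942 and 4488 in KEAP1-deficient adults. All 3 mutant groups lay below wild type. The log2 difference of Krt80 from wild type was -1.10 in homozygotes (adjusted p = 0.0032, SE 0.23) and -1.15 in KEAP1-deficient adults (adjusted p = 0.00066, SE 0.23). In heterozygotes its difference was -0.69 (95% interval -1.17 to -0.21, adjusted p = 0.068), and it passed without wild-type library 4 (adjusted p = 0.045).

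The simple keratins were scarce in adults of each genotype. Krt7 was 8.8, 15.7, 10.0 and 109.6 in wild type, 96.3, 10.0, 98.1 and 14.8 in heterozygotes, 1.6, 11.6, 0 and 19.2 in homozygotes and 11.8, 8.8, 6.8 and 25.5 in KEAP1-deficient adults. Krt19 ran from 10.6 to 123.7 in wild type, 28.7 to 136.8 in heterozygotes, 0 to 88.9 in homozygotes and 6.8 to 87.3 in KEAP1-deficient adults. Krt8 ran from 2.5 to 41.0 in wild type, 16.3 to 60.6 in heterozygotes, 3.2 to 36.6 in homozygotes and 4.0 to 41.7 in KEAP1-deficient adults. For these 3 genes each mutant group overlapped wild type, and none passed the test against it. Krt18 was 8.1, 8.7, 4.4 and 12.1 in wild type, 34.1, 22.9, 20.6 and 23.7 in heterozygotes, 1.6, 8.3, 10.7 and 26.2 in homozygotes and 36.1, 13.6, 17.3 and 34.2 in KEAP1-deficient adults. Heterozygotes and KEAP1-deficient adults lay above wild type. Krt18 rose by 1.45 in KEAP1-deficient adults (SE 0.54, adjusted p = 0.038) and differed by 1.54 in heterozygotes (95% interval 0.39 to 2.70, adjusted p = 0.085). The heterozygote difference passed with limma-voom (adjusted p = 0.041) and with the groups compared fitted alone (0.033). The Krt18 call in KEAP1-deficient adults ended without wild-type library 1 (adjusted p = 0.067), 2 (0.062) or 3 (0.11), without KEAP1-deficient library 1 (0.10) or 4 (0.10), and with an offset of 0.1 (0.053).

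Adult marker sums also varied by library. The airway list summed to 10789 in heterozygote library 3, which had the highest Krt19 and Krt8 of the adults, and to 967.9 in wild-type library 4, which had the highest Krt7. In KEAP1-deficient adults it summed to 1313 to 3063, of which Ltf (lactoferrin) alone gave 1303 to 3051, while Muc5b was at most 2.25. The mesothelium list ran from 324.2 to 677.6 in wild type, 841.1 to 1918 in heterozygotes, 328.1 to 1283 in homozygotes and 863.7 to 2121 in KEAP1-deficient adults. Of its 9 genes 0 were called in heterozygotes and homozygotes, though each heterozygote sum lay above the wild-type range. In KEAP1-deficient adults 2 rose (Bnc1 by 1.52, adjusted p = 8.3e-05, and Rspo1 by 0.83, adjusted p = 0.011). Bulk values do not show which cells the Bnc1 and Rspo1 transcripts came from, squamous or mesothelial. Other tissue markers moved with KEAP1 loss. In KEAP1-deficient adults 8 of 9 striated muscle genes and 7 of 8 smooth muscle genes fell, and 0 of either list rose. Of the 6 leukocyte genes 5 rose, with sums of 5446 to 9903 in wild type and 16100 to 21937 in KEAP1-deficient adults, and of the 7 fibroblast genes 4 rose and 1 fell. In homozygotes 4 leukocyte genes rose, and in heterozygotes 5 striated muscle genes rose. Shares called over all genes were 9.7% in heterozygotes, 22.3% in homozygotes and 46.8% in KEAP1-deficient adults. The mesothelium count in KEAP1-deficient adults is below that group's share. The hair follicle and skin appendage list summed to at most 163.9 in any library, with 4 of its genes listed in pups and 3 in adults. It names hair follicles and appendages, so it is no check for stray epidermis, which was not tested. The part of these cells in the adult keratin values was not tested.

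Of the 7 keratins tested in adults, limma called 0 in heterozygotes against wild type, beside 9.7% of all genes, with 4 at an unadjusted p under 0.05 and 2 called by limma-voom. In homozygotes against wild type 2 of 7 were called (Krt10 higher, Krt80 lower), beside 22.3% of all genes. In KEAP1-deficient adults 2 of 7 were called (Krt18 higher, Krt80 lower), beside 46.8%. Between homozygotes and heterozygotes 0 were called by limma or limma-voom, beside 16.4%, with 2 at an unadjusted p under 0.05 (Krt7 at -2.83, adjusted p = 0.073, and Krt18 at -1.47, adjusted p = 0.077). Homozygotes exceeded KEAP1-deficient adults in 1 of 7, beside 26.4%: Krt10 was higher by 4.03 (SE 0.62, adjusted p = 0.00039). Heterozygotes exceeded KEAP1-deficient adults in 2 of 7, beside 44.8%: Krt10 by 2.89 (adjusted p = 0.0018) and Krt1 by 2.95 (adjusted p = 0.022). The Krt1 call in that comparison ended without heterozygote library 2 (0.059) or 3 (0.056) or without KEAP1-deficient library 2 (0.064), 3 (0.07) or 4 (0.051). These comparisons share libraries, so their values stand side by side and are not independent.

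The epidermal differentiation list did not follow Krt10 in adults. Of its 26 genes, 0 rose and 5 fell in heterozygotes, 0 rose and 13 fell in homozygotes, and 0 rose and 20 fell in KEAP1-deficient adults, with medians of -0.55, -0.56 and -1.23. The shares called over all genes were 9.7%, 22.3% and 46.8%. Calml3, a calmodulin-like protein of differentiating keratinocytes, fell by 1.00 in heterozygotes (adjusted p = 0.0014), fell by 1.86 in homozygotes (adjusted p = 8.9e-07) and fell by 3.06 in KEAP1-deficient adults (adjusted p = 1.1e-09). Lipk, a lipase of the outer epidermis, fell by 1.67 in homozygotes (adjusted p = 9.6e-05) and fell by 2.80 in KEAP1-deficient adults (adjusted p = 7.3e-08). Asprv1, the retroviral-like protease that processes filaggrin, fell by 1.49 (adjusted p = 0.00088) and fell by 3.43 (adjusted p = 5.6e-08). Of the simple epithelium list, 20 genes were tested, of which 1 rose and 3 fell in heterozygotes, 1 rose and 7 fell in homozygotes, and 6 rose and 5 fell in KEAP1-deficient adults, where the share called was near that of all genes. Sox9, a transcription factor of progenitor and duct cells, rose by 0.96 in homozygotes (adjusted p = 0.0025) and by 1.21 with KEAP1 loss (adjusted p = 8.3e-05). In homozygotes it was the 1 gene of the list that rose, against the 7 that fell, so Sox9 does not stand for the list.

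**Figure D5:**
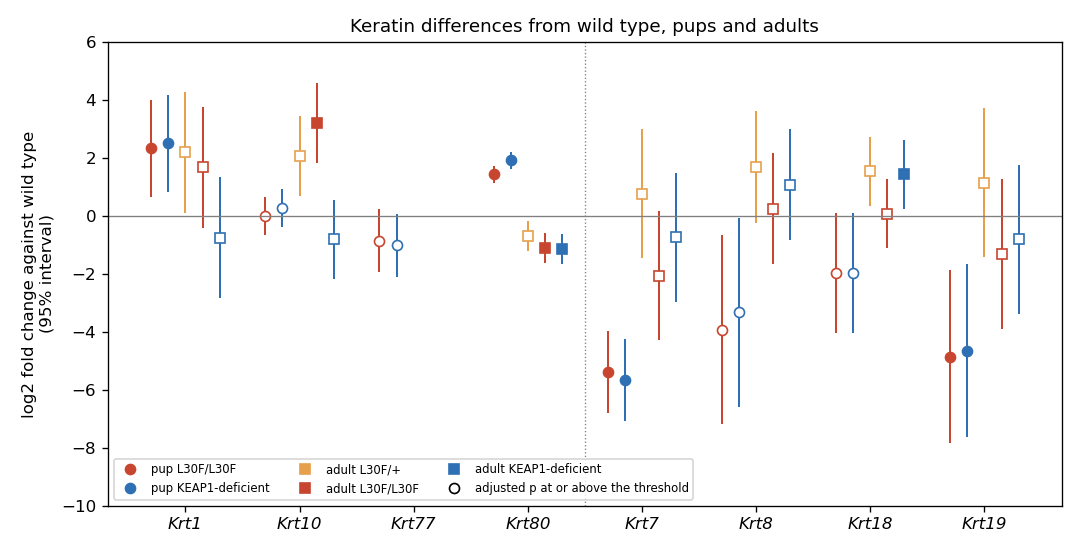
Log2 fold change against wild type with its 95% interval for each keratin in 5 comparisons, pups as circles and adults as squares, filled where the adjusted p is under 0.05. Krt80 is above 0 in pups and below 0 in adults, Krt10 lies above 0 in both adult L30F genotypes (filled in homozygotes), and Krt7 and Krt19 lie below 0 in both pup mutants.

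The difference between the adult and the pup effect was tested for each genotype over 19031 genes. For the L30F homozygous effect 3 of 7 keratins differed, beside 33.5% of all genes. Krt10 had an effect higher in adults by 3.23 in log2 units (SE 0.68, adjusted p = 0.001), and Krt80 had one that was lower in adults, a difference of -2.54 (SE 0.25, adjusted p = 4.9e-08). Krt7, which fell far in pups, had an effect higher in adults by 3.34 (adjusted p = 0.034). That Krt7 call ended with an offset of 0.1 (2.44, adjusted p = 0.24) and without any 1 of 8 libraries (adjusted p from 0.05 to 0.094): wild-type pup 1, homozygous pups 2 and 3, wild-type adults 1, 2 and 3, and homozygous adults 2 and 4. For KEAP1 deficiency 5 of 7 differed, beside 47.1%. Krt7 was higher in adults by 4.93 (adjusted p = 0.0015), Krt18 by 3.40 (adjusted p = 0.014) and Krt8 by 4.40 (adjusted p = 0.039), whereas the difference was -3.07 for Krt80 (adjusted p = 1.3e-09) and -3.27 for Krt1 (adjusted p = 0.028). Age, the kind of Cre and tamoxifen differ together between the experiments and cannot be told apart. With the thyroid and stomach libraries left out, a choice made after seeing the data, 6 of 7 differed for the homozygous effect, beside 33.9% of all genes. Krt8 (5.50, adjusted p = 0.00014), Krt18 (2.96, adjusted p = 0.00052) and Krt19 (4.38, adjusted p = 0.018) joined. For KEAP1 deficiency 5 of 7 differed in that fit, beside 45.4%, with Krt19 (5.03, adjusted p = 0.0053) in and Krt1 (adjusted p = 0.055) out. In the KEAP1 effect, the Krt8 call ended without any 1 of 9 libraries (adjusted p from 0.063 to 0.11): wild-type pups 1, 2 and 3, KEAP1-deficient pups 1 and 3, wild-type adults 1 and 3, and KEAP1-deficient adults 1 and 4. The Krt1 call ended without any 1 of 7 (from 0.05 to 0.08): wild-type pups 1 and 2, KEAP1-deficient pup 2, wild-type adult 2, and KEAP1-deficient adults 2, 3 and 4. The Krt18 call ended without KEAP1-deficient pup 1 (0.053).

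Levels were compared between genes per kilobase of the longest coding transcript in GENCODE. In wild-type pups the order by mean was Krt19 (1251 normalised counts per kilobase), Krt80 (489.3), Krt8 (451.7), Krt7 (390.7), Krt10 (213.6), Krt18 (151.3), Krt1 (130.0) and Krt77 (96.0). Krt80, Krt8 and Krt7 overlapped over libraries, as did the last 4, and Krt1 was 86.6 without wild-type library 3. In adult wild type Krt80 led with 2065, followed by Krt1 (243.7) and Krt10 (150.6), which overlapped, and by Krt19 (30.4), Krt7 (8.79), Krt8 (7.38) and Krt18 (5.79), which overlapped as well. Single libraries set several of these means: without wild-type library 2, Krt1 was 90.3 and Krt10 114.6, and without wild-type library 4, Krt19 was 14.4, Krt7 2.80 and Krt8 2.86. In adult homozygotes Krt10 stood at 1469, Krt80 at 963.2 and Krt1 at 578.5 (326.3 without library 4). Of the keratins of the epithelium itself, Krt5 stood at 16005 and Krt14 at 5352 in adult wild type, and at 6369 and 1695 in wild-type pups, where Krt14 overlapped with Krt19. The tables of pups and adults were normalized separately, so levels are not compared across them.

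Patterns were compared over the 25 libraries by the root mean square difference of log2 values, each centred within its experiment, among 17094 genes with a mean of at least 10 in both tables. Among the 7 keratins with values in both, Krt8 and Krt18 were the closest pair (0.91). Krt1 and Krt10 (1.05) and Krt8 and Krt19 (1.11) followed, and Krt1 and Krt7 were the farthest apart (3.03). By experiment, the partner pairs were the closest in adults alone (0.83 for Krt8 and Krt18, 0.93 for Krt1 and Krt10). In pups they stood at 1.03 and 1.24. There Krt8 and Krt19 (0.76), Krt10 and Krt80 (0.78) and Krt1 and Krt80 (0.79) were closer. Krt10 and Krt80 did not move alike in pups. Krt80 rose by 1.44 in homozygotes and 1.92 in KEAP1-deficient pups, where the Krt10 differences were -0.01 and 0.27. The distances of a level gene, given next, are over all 25 libraries and not for pups alone. A gene level within each experiment would stand at 1.74 from Krt8, 1.15 from Krt18, 1.59 from Krt1 and 1.45 from Krt10. Of the genes that are no keratins, Dnah12 (1.18), Clca3a2 (1.19) and Gprc5a (1.22) were nearest to Krt8, and Apol7a (0.78), Gabra3 (0.79) and Akr1c14 (0.80) to Krt18. Acaa1b was among the 3 nearest to both Krt1 (1.11) and Krt10 (0.90), with G430049J08Rik (1.08) and Phospho1 (1.14) for Krt1 and Gprin2 (0.85) and Elfn2 (0.91) for Krt10. The libraries share genotype and depth, so likeness is a description.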

How the data were processed

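RNA of the whole esophagus was sequenced, and the submitters' processing notes name Salmon and GRCm39, with no version. The deposited values are log2 values, 1 table per experiment: a constant of 4 was added to each size-factor-scaled read number before the logarithm. They were converted back to normalised counts, and whole reads (within 0.1, up to 1000 reads) could be recovered. The tables were normalized separately and are tested separately.

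Tests used limma 3.58.1 (trend and robust settings, statmod 1.5.0, R 4.3.3) on log2(value + 1). Genes had to reach 1 in 3 libraries of pups or 4 of adults. The groups of each experiment were fitted together, with no replicate term. P-values were adjusted by the Benjamini-Hochberg method over all genes tested and called under 0.05. Adult and pup effects were compared by subtracting their log2 fold changes and dividing by the combined standard error (Welch-Satterthwaite degrees of freedom). The test was checked on simulated data, whose spread was smaller than that of several keratins here, so the check does not bear on their calls. The members, lists and alternatives were chosen with earlier results of these data known. Genes named are the members, Krt5, Krt14, at most 3 genes per list by adjusted p, and the 3 nearest genes to Krt1, Krt10, Krt8 and Krt18. Ltf, Muc5b, Foxj1, Dnah5 and Upk1b were chosen from their lists after their values were seen. A count model was not used, since the deposited unit is log2. Alternatives were other offsets, no filter, TMM scaling, limma-voom on recovered reads, thinning to equal depth, a replicate block, separate fits and libraries left out.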

Additional observations from a re-analysis of the deposited data

Results flagged for a closer look

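In 2 of 28 gene and genotype sets of adults, 1 library lay far from the other three; chance alone does so in about 1 of 20 such sets. Krt1 was 3278 in L30F homozygote library 4, against 707.7 to 865.5 in the other homozygous adults. Krt10 was 676.1 in KEAP1-deficient library 1, against 91.6 to 125.9 in the others. That library also had the highest Krt1 of its group (1239).

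The effect of L30F homozygosity differed between adults and pups by 3.23 on the log2 scale for Krt10, 3.34 for Krt7 and -2.54 for Krt80. The effect of KEAP1 deficiency differed by 4.93 for Krt7, 4.40 for Krt8, 3.40 for Krt18, -3.27 for Krt1 and -3.07 for Krt80. Each was a test of the difference between the effects themselves. The sign of the Krt80 effect was opposite at the 2 ages in both genotypes.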

How the results depend on the processing

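No keratin difference that passed the test changed sign under any alternative; some that did not pass did, such as Krt10 in homozygous pups. TMM scaling, no filter on low values and thinning to equal depth changed no keratin call. Called keratins in pup homozygotes against wild type (4) ranged from 2 to 6 with each library left out. In KEAP1-deficient pups (4) they ranged from 3 to 5, and in adult homozygotes against wild type (2) the count was 2 throughout. Between pup homozygotes and KEAP1-deficient pups (1) the count was 0 with each library left out, with the thyroid and stomach libraries left out, with the groups compared fitted alone and with the replicate block. Adult heterozygotes against wild type (0) gave 1 with an offset of 4 or 5, 2 with limma-voom, 2 with the groups compared alone and 0 to 1 with libraries left out. KEAP1-deficient adults against wild type (2) gave 1 with an offset of 0.1 and 1 to 2 with libraries left out. Leaving out libraries gave 0 to 2 for homozygotes against heterozygotes (0), 1 to 2 for homozygotes against KEAP1-deficient adults (1) and 1 to 3 for heterozygotes against KEAP1-deficient adults (2). The adult minus pup counts ranged from 2 to 5 for L30F homozygotes (3) and from 3 to 6 for KEAP1 deficiency (5). Without the thyroid and stomach libraries the count for L30F homozygotes was 6, beside 33.9% of all genes. Causes were not tested.

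Replicate numbers did not pair the samples: in adults 0 of 24 same-numbered pairs and in pups 1 of 9 correlated above 0.1. With the replicate block, the Krt80 difference between the pup mutants had an adjusted p of 0.058 and the Krt8 difference of the KEAP1 effect one of 0.055, and no other keratin call changed. The 875 genes called between the pup mutants became 222 with the block, 185 with those groups alone and 52 without the thyroid and stomach libraries, against the background of 4.17%. With the groups compared alone, 809 genes were called in adult heterozygotes against wild type (1927) and 1544 between homozygotes and heterozygotes (3249). A quasi-likelihood count test was planned and not run. Low counts limit the adult simple keratins, with as few as 19 reads of Krt7 over the 4 homozygous libraries. Without wild-type pup 1 or 2 or homozygous pup 2, or with the groups compared alone, the call of Foxj1 in homozygous pups ended (adjusted p from 0.056 to 0.062), and so did that of Dnah5 without wild-type pup 1 (0.06) or 2 (0.06) or with the groups alone (0.063).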
